A study of Mus musculus with 10 samples.

Results

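Acetyl-only regions are stretches of the mouse genome where an island of acetylated histone H4 was called in spermatocytes or round spermatids and no island of butyrylated H4 was called in either stage. An island is a stretch that the authors' caller marked as enriched in a ChIP-seq library over its input, after scaling for the sizes of both. The islands of all 8 lists were joined into regions wherever they shared at least 1 bp. Of 58242 regions on chromosomes 1 to 19, 51863 carried H4K5ac or H4K8ac in at least 1 stage, and 4398 of these carried none of the 4 butyryl lists. Acetyl-only regions thus made up 8.48% of the regions with an acetyl call (95% exact binomial interval 8.24 to 8.72%) and 7.55% of all regions. The other 47465 acetyl regions held at least 1 butyryl island and serve below as the comparison. A further 6379 regions held butyryl islands without an acetyl one. The regions were chosen by the authors' island calls in these same libraries, so the counts, lengths and acetyl folds below describe them and test nothing.

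The study mapped 4 marks of histone H4 in male germ cells: acetylation (ac) and butyrylation (bu) of lysine 5 (H4K5ac, H4K5bu) and lysine 8 (H4K8ac, H4K8bu). Cells were fractionated from testis of the strain given as Oncins France 1. The groups were spermatocytes, which pass through meiosis, and round spermatids, its haploid products. Each stage gave 1 library per mark, made from about 100 ug of mononucleosomes with 5 ug of rabbit antibody, and 1 input library of nucleosomes taken before immunoprecipitation. The labels name no genotype and no treatment, and every immunoprecipitation ran in a buffer containing sodium butyrate. The antibodies differed in source between acetyl and butyryl marks. The labels give neither the age and number of animals nor the purity of the fractions, and no marker of cell identity is held in these lists.

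Lysines 5 and 8 lie in the tail of histone H4 that projects from the nucleosome. Acetylation removes the positive charge of the lysine and is read by bromodomain proteins, among them BRDT, the bromodomain protein of male germ cells, which binds H4 acetylated at lysines 5 and 8 together. Butyrylation puts a longer acyl chain on the same residue, and BRDT does not accept a butyryl group at lysine 5. The choice of acyl group at these lysines therefore bears on where BRDT can bind as spermatids approach the exchange of histones for protamines. On a population of cells, acetyl and butyryl forms can share a region because different nucleosomes carry them.

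The 8 lists held 28031 to 44291 islands with 4768412 to 9230541 ChIP reads inside islands per library. With 1 library per group there was no spread between replicates to compare with, and no p-value was computed. Intervals are 95% throughout. Those of shares and folds cover counting error only, and those of medians the spread between regions. Reads and neighbouring islands are not fully independent, so the true uncertainty is wider. Where a mark had no island it was merely not called, which falls short of a measured absence. Bulk libraries cannot tell fewer marked cells from less mark per cell.

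Most acetyl-only regions were called in spermatocytes only, and most carried H4K5ac without H4K8ac, but spermatocyte H4K5ac alone, which has both properties, made up 1651 of 4398 (37.5%, 36.1 to 39.0%). Of the 4398, 2981 (67.8%, 66.4 to 69.2%) had acetyl calls in spermatocytes only, 1297 (29.5%, 28.1 to 30.9%) in round spermatids only, and 120 (2.73%, 2.27 to 3.25%) in both stages. Over all acetyl regions these shares were 31.8%, 20.0% and 48.2%. H4K5ac without H4K8ac was called at 2839 (64.6%, 63.1 to 66.0%), H4K8ac without H4K5ac at 1010 (23.0%, 21.7 to 24.2%), and both marks at 549 (12.5%, 11.5 to 13.5%). Among acetyl regions with a butyryl call H4K5ac alone had 21.2% and both marks 77.0%, and H4K8ac alone was found at 852 of 47465.

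These shares depend on how long the lists are. When every list was shortened by fold to the 28031 islands of the shortest, round spermatid H4K8ac, 5406 regions were acetyl-only, 12.7% of the acetyl regions. Of them 45.7% were called in spermatocytes only and 52.0% in round spermatids only, so the order of the stages turned around. H4K5ac alone made up 34.2% and H4K8ac alone 50.8%, so the order of the marks turned around too. Round spermatid H4K8ac, which keeps all of its islands in that setting while the butyryl lists lose some, went from 215 acetyl-only regions to 2049. The share called in both stages was 2.29% and that with both marks 15.1%.

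**Figure D1:**
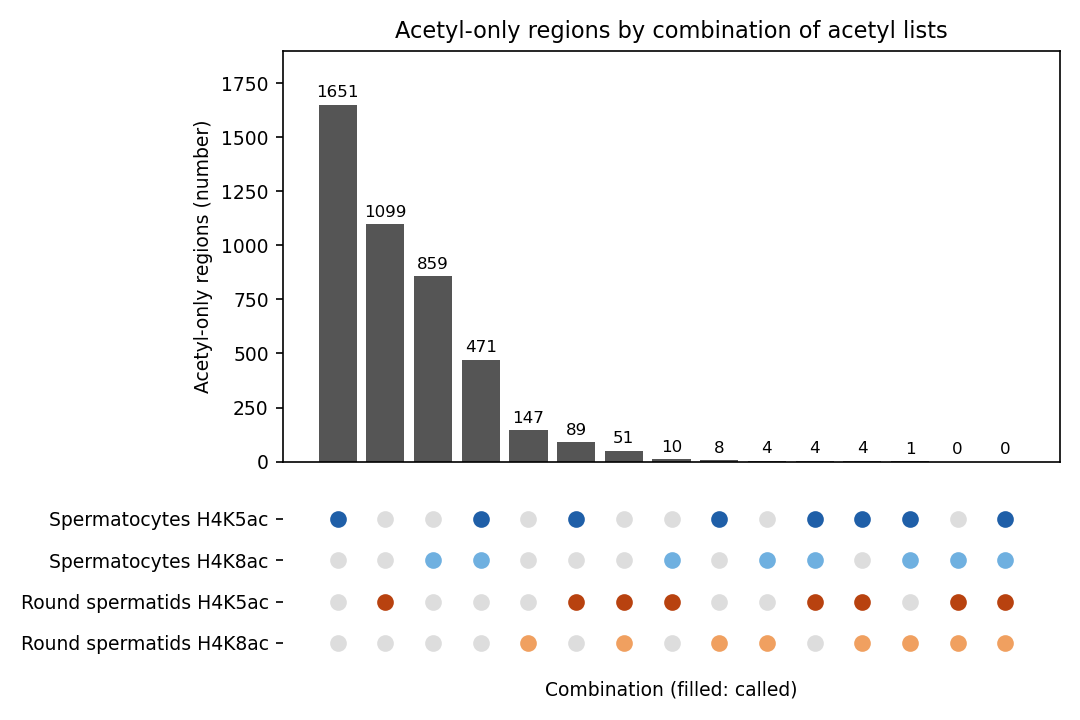
Number of acetyl-only regions (vertical axis) for each of the 15 possible combinations of the 4 acetyl lists, marked by filled circles below the bars. The 4 lists called alone hold 1651, 1099, 859 and 147 regions, and the bar for all 4 lists together is at 0.

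The region called in 1 acetyl list alone was the common case, at 3756 of 4398 (85.4%, 84.3 to 86.4%). Another 633 were in 2 lists and 9 in 3 lists. None was in all 4, where a count of 0, read as an upper limit of 3 counts, allows a share of up to 0.0682%, against 16546 (34.9%) of the acetyl regions with a butyryl call. With lists of equal length, 3 acetyl-only regions were in all 4. Spermatocyte H4K5ac alone gave 1651 regions and round spermatid H4K5ac alone gave 1099. Spermatocyte H4K8ac alone gave 859 and round spermatid H4K8ac alone gave 147. The most frequent pair was H4K5ac with H4K8ac in spermatocytes, with 471 regions, followed by H4K5ac in both stages with 89 and the 2 marks in round spermatids with 51.

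Seen from each list, lack of butyryl was rarest for H4K8ac in round spermatids. Acetyl-only regions were 2228 of the 39822 with spermatocyte H4K5ac (5.59%), 1349 of the 31621 with spermatocyte H4K8ac (4.27%), 1257 of the 34738 with round spermatid H4K5ac (3.62%) and 215 of the 24156 with round spermatid H4K8ac (0.890%, 0.775 to 1.02%). That order did not hold with lists of equal length, where the shares were 5.40%, 6.17%, 5.02% and 8.42%.

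The 2 acetyl marks were called together less often in acetyl-only regions than in the others. Of acetyl-only regions with H4K5ac, 21.4% in spermatocytes and 4.38% in round spermatids had H4K8ac in the same stage. Among H4K5ac regions with a butyryl call these shares were 78.5% and 70.1%. Of the 1349 acetyl-only regions with spermatocyte H4K8ac, 476 (35.3%, 32.7 to 37.9%) also had spermatocyte H4K5ac, against 97.4% of those with a butyryl call. In round spermatids, 55 of 215 H4K8ac regions (25.6%, 19.9 to 32.0%) also had H4K5ac, against 98.0%. The gap was also present among short regions. Among regions up to 2000 bp the shares in spermatocytes were 36.8% (33.7 to 39.9%) and 89.9% (88.7 to 91.0%), and in round spermatids 17.0% (10.1 to 26.2%) and 73.6% (68.0 to 78.8%).

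The split by stage looked different among short regions. Up to 2000 bp, 78.3% (76.8 to 79.8%) of acetyl-only regions and 78.5% (77.4 to 79.6%) of the other acetyl regions were called in spermatocytes only. Round spermatids alone accounted for 20.9% (19.4 to 22.4%) and 17.4% (16.4 to 18.4%). Calls in both stages remained scarcer without butyryl, at 0.790% (0.501 to 1.18%) against 4.12% (3.60 to 4.69%). The excess of spermatocyte regions among all acetyl-only regions was thus not seen up to 2000 bp. Lengths inside that class were not matched, and regions above 2000 bp were not compared separately. Whether length accounts for the split by stage was not tested.

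Acetyl-only regions were short. Their median length was 1800 bp (quartiles 1200 and 2400, range 200 to 49200), against 4200 bp for the other acetyl regions and 2200 bp for regions with butyryl islands alone. Of the 4398, 2912 (66.2%) were at most 2000 bp long and 126 exceeded 4000 bp. Together they covered 8.38 Mb, against 274.0 Mb for the other acetyl regions. Those of spermatocyte H4K5ac were shortest, with a median of 1400 bp, and those of round spermatid H4K5ac and H4K8ac longest, each with a median of 2200 bp.

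Regions up to 2000 bp lacked butyryl more often than longer ones in all 4 lists. For spermatocyte H4K5ac the acetyl-only share was 71.4% (68.2 to 74.4%) up to 1000 bp, 16.1% above 1400 and up to 2000 bp, and 0.129% above 4000 bp. For spermatocyte H4K8ac the same classes gave 68.7%, 15.3% and 0.135%. Round spermatid H4K5ac gave 55.3%, 27.4% and 0.392%, and round spermatid H4K8ac 32.8%, 20.7% and 0.0694%. In round spermatids the class above 1000 and up to 1400 bp, at 55.6% and 40.0%, did not differ from the shortest beyond the intervals. A merged region grows with each list that covers it, so length and the number of lists are tied by construction.

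**Figure D2:**
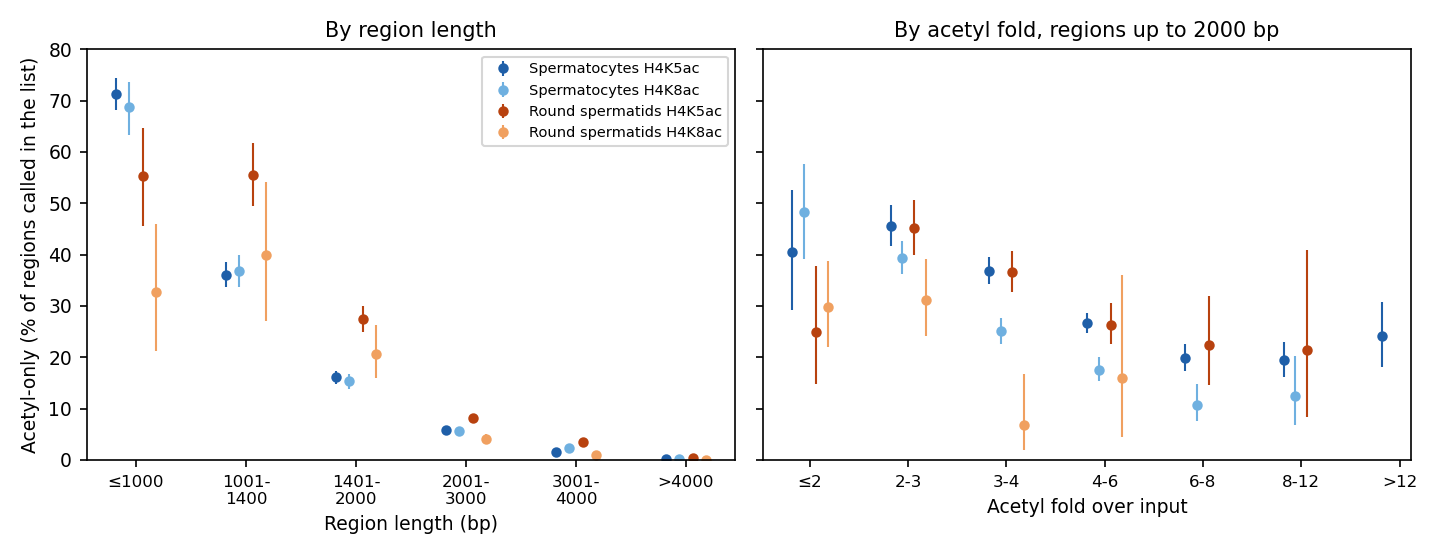
Percent of the regions called in each acetyl list that were acetyl-only, by region length in bp (left) and, for regions up to 2000 bp, by acetyl fold over input (right). Bars are exact 95% intervals and classes of fold with fewer than 20 regions are left out. The spermatocyte H4K5ac share goes from 71.4% in the shortest class to 0.129% in the longest.

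The median acetyl fold was lower where butyrylation was not called. Fold is the ratio of ChIP to input reads in a region's islands of a list, scaled by that list's constant. In spermatocytes the median H4K5ac fold was 3.94 (3.83 to 4.02) in acetyl-only regions and 5.73 (5.68 to 5.78) in the others, and the median H4K8ac fold was 2.80 (2.72 to 2.87) and 4.21 (4.19 to 4.24). In round spermatids H4K5ac had 2.94 (2.89 to 3.01) and 4.62 (4.59 to 4.65), and H4K8ac 1.98 (1.88 to 2.04) and 3.12 (3.10 to 3.13). All 4 lists thus had the lower median in acetyl-only regions, although the ranges overlapped widely. The quartiles for spermatocyte H4K5ac were 3.02 and 5.22 in acetyl-only regions and 3.87 and 8.76 in the others.

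**Figure D3:**
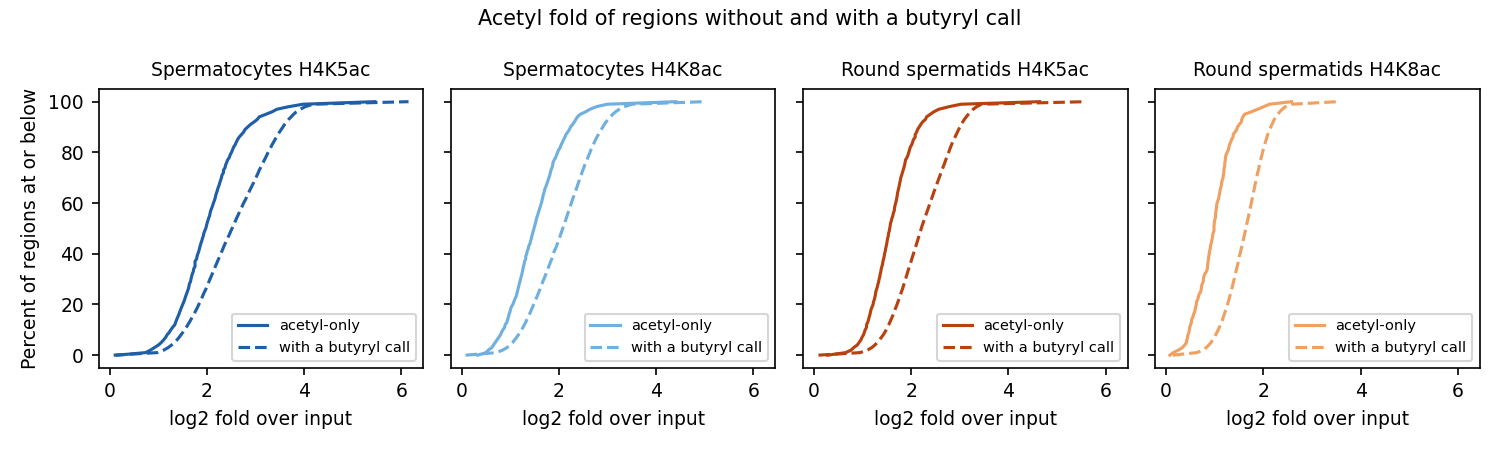
Cumulative percent of regions (vertical axis) at or below each log2 fold over input (horizontal axis) in the 4 acetyl lists, with acetyl-only regions as solid and acetyl regions with a butyryl call as dashed lines. In each list the acetyl-only curve lies to the left over most of its course, with medians of 3.94 against 5.73 fold for spermatocyte H4K5ac and 1.98 against 3.12 for round spermatid H4K8ac.

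The regions also rested on few reads. The median number of ChIP reads was 43 in acetyl-only regions of spermatocyte H4K5ac, against 126 in the others, and 58 against 131 for spermatocyte H4K8ac. In round spermatids it was 56 against 133 for H4K5ac and 60 against 124 for H4K8ac. Of acetyl-only regions, 56.9%, 49.1%, 52.0% and 43.3% in these lists had no more ChIP reads than the 10th percentile of the list's islands, against 7.91% to 9.15% of the other acetyl regions. With a minimum of 50 ChIP reads for each acetyl island, 2517 acetyl-only regions were left, and the number with spermatocyte H4K5ac was 608. In regions of like, short length the gap in fold was smaller than over all lengths, or turned around. Above 1400 and up to 2000 bp the median folds without and with a butyryl call were 3.65 and 4.94 for spermatocyte H4K5ac, 2.75 and 3.86 for spermatocyte H4K8ac, 3.28 and 3.83 for round spermatid H4K5ac, and 2.13 and 2.61 for round spermatid H4K8ac. Up to 1000 bp they were 4.88 and 5.19 for spermatocyte H4K5ac and 3.73 and 3.94 for spermatocyte H4K8ac. In round spermatids up to 1000 bp the acetyl-only regions had the higher median, 4.03 against 1.99 for H4K5ac and 1.79 against 1.61 for H4K8ac. These classes held 114 and 61 regions, 63 and 20 of them acetyl-only. Above 2000 and up to 3000 bp the spermatocyte gap was wider than over all lengths, 3.27 and 5.28 for H4K5ac and 2.25 and 3.92 for H4K8ac. In round spermatids it was narrower there, 2.84 and 3.74 for H4K5ac and 1.98 and 2.59 for H4K8ac.

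Over all lengths, lack of butyryl was less frequent between 4- and 6-fold than up to 2-fold in all 4 lists. Among spermatocyte H4K5ac regions the acetyl-only share was 17.7% at folds up to 2, 6.73% between 4 and 6, and 1.39% above 12. For spermatocyte H4K8ac the share was 15.8% up to 2 and 2.05% between 4 and 6. Among round spermatid H4K8ac regions it was 6.13% up to 2 and 0.117% between 4 and 6, and it was 0 of 219 between 6 and 8, which allows a share of up to 1.37% (3 counts). Among round spermatid H4K5ac regions it was 17.7% up to 2, 1.60% between 4 and 6 and 0.247% (0.107 to 0.486%) between 8 and 12. Above 12 it was 6 of 156 (3.85%, 1.42 to 8.18%). Restricted to regions up to 2000 bp, the spermatocyte H4K5ac share was 45.6% (41.6 to 49.6%) between 2 and 3, 26.7% (24.8 to 28.6%) between 4 and 6, 19.4% (16.2 to 22.9%) between 8 and 12 and 24.1% (18.1 to 30.8%) above 12. At that length spermatocyte H4K8ac had 48.3% up to 2 and 17.6% between 4 and 6. Round spermatid H4K5ac had 45.2% (39.9 to 50.5%) between 2 and 3 and a lower 26.4% (22.5 to 30.5%) between 4 and 6. The ends of its range did not follow this decline, with 15 of 60 regions (14.7 to 37.9%) up to 2 and 5 of 9 above 12. Round spermatid H4K8ac had 29.8% (22.0 to 38.7%) up to 2 and 4 of 25 regions between 4 and 6.

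Input reads differed little for H4K5ac and more for H4K8ac. Per kb of island, acetyl-only and other regions had medians of 14.0 and 14.1 input reads for spermatocyte H4K5ac, 16.6 and 14.1 for spermatocyte H4K8ac, 18.3 and 17.2 for round spermatid H4K5ac, and 21.3 and 17.4 for round spermatid H4K8ac. ChIP reads per kb were 32.5 and 47.3, 37.1 and 46.7, and 25.8 and 37.2 for the first 3 of these, and for round spermatid H4K8ac the median interval of acetyl-only regions was 29.2 to 31.3, against a median of 38.0. The lower folds came with fewer ChIP reads per kb in all 4 lists, and for H4K8ac also with more input reads per kb. Input density above the 99th percentile of its list was found at 34, 19, 24 and 22 acetyl-only regions. For the first 3 lists the shares were 1.53%, 1.41% and 1.91%, against 0.803%, 0.842% and 0.803% of the other acetyl regions. For round spermatid H4K8ac these 22 were 10.2% of its acetyl-only regions, against 0.639% of the others.

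Several of the regions with the most reads had such deep input. The longest, chr8:19853401-19902600 (49200 bp), had 2173 spermatocyte H4K5ac reads over 3297 input reads, a fold of 1.11 (1.05 to 1.18), and 3187 round spermatid H4K8ac reads over 4283, a fold of 1.06 (1.01 to 1.10). Its input density was 84.1 and 87.1 reads per kb. The other long one, chr18:3004201-3013000, had round spermatid H4K8ac alone at 1.10 (1.01 to 1.20) with 143.0 input reads per kb. On chromosome 4, chr4:147028401-147035000 had round spermatid H4K5ac at 1.22 (1.04 to 1.42) with 66.2 input reads per kb. For spermatocyte H4K5ac, chr4:145135001-145138400 had 129 reads over 172, a fold of 1.27 (1.00 to 1.60), with 50.6 input reads per kb. All of these were called by the authors at folds close to 1 on very deep input. Other regions with the most reads had input below that percentile. For round spermatid H4K5ac, chr2:26354001-26360200 had 143 reads over 118, a fold of 2.56 (2.00 to 3.30), with 19.0 input reads per kb. For spermatocyte H4K8ac, chr9:58840401-58845200 had 144 reads over 97, a fold of 1.85 (1.42 to 2.41), and chr12:79641201-79646200 had 131 over 88, a fold of 1.85 (1.40 to 2.45). Leaving out islands of such input in all 8 lists gave 4434 acetyl-only regions.

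The acetyl folds were set beside the folds at which butyryl islands were called. For each acetyl-only region the yardstick was the 5th percentile of the folds of called islands, in the butyryl list of the same residue and stage, whose input reads were 80 to 125% of the region's. The acetyl fold itself lay below it at 10.7% of the spermatocyte H4K5ac regions, 33.5% of spermatocyte H4K8ac, 4.61% of round spermatid H4K5ac and 86.8% of round spermatid H4K8ac. When the acetyl fold was first scaled by the median butyryl to acetyl balance of regions called for both, the shares were 84.9%, 6.75%, 24.7% and 33.5%, against 21.9%, 0.893%, 5.21% and 1.97% of the other acetyl regions. Below the lowest fold called at like input lay 18.5%, 0%, 2.23% and 0.472% of the scaled values. The order of the lists thus turned around with the scaling, the balance comes only from regions where butyryl was called, and islands were called below the 5th percentile. These values do not settle whether butyryl marks were missed in the acetyl-only regions, which was not tested.

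The least certain island on each side of the rule was weak. Just inside, the least certain H4K5ac island of spermatocytes, chr6:91406401-91408400, had 44 ChIP and 52 input reads, a fold of 1.43 (0.934 to 2.18) and a deposited q-value of 0.00972. Just outside, chr18:65263601-65264600 had the butyryl island with the highest q-value, 0.00978, among those that alone kept a region out, with 31 H4K8bu reads in spermatocytes over 24 input reads and a fold of 1.53 (0.869 to 2.72). Of the 5930 acetyl regions with a single butyryl island, 39 had a q-value above 0.001 for it, and the median fold of these single islands was 2.93. In acetyl-only regions, 18 of 2229 spermatocyte H4K5ac islands and 27 of 1349 spermatocyte H4K8ac islands had q-values above 0.001. In round spermatids it was 13 of 1257 for H4K5ac and 41 of 215 for H4K8ac, the largest share of the 4. Below 1e-20 lay 383, 113, 123 and 0 of the islands of these lists.

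Few acetyl-only regions had H4K5ac called in both stages. Of the 2228 with H4K5ac in spermatocytes, 97 (4.35%, 3.54 to 5.29%) also had it in round spermatids, against 65.1% of those with a butyryl call. Up to 2000 bp the shares were 0.934% (0.535 to 1.51%) and 4.52% (3.91 to 5.20%). At these 97 the spermatocyte H4K5ac fold had a median of 3.89 and ran from 1.54 to 19.8. The round spermatid fold had a median of 3.12 and ran from 1.41 to 10.3. The stages overlapped over nearly the whole range. The median log2 ratio of round spermatids over spermatocytes was -0.21 (-0.39 to -0.06), and in the other acetyl regions it was -0.25 (-0.26 to -0.23). The ratio was more than 2-fold higher in round spermatids at 3 of the 97 and more than 2-fold lower at 11, and over all acetyl regions these classes held 5.01% and 18.3%.

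**Figure D4:**
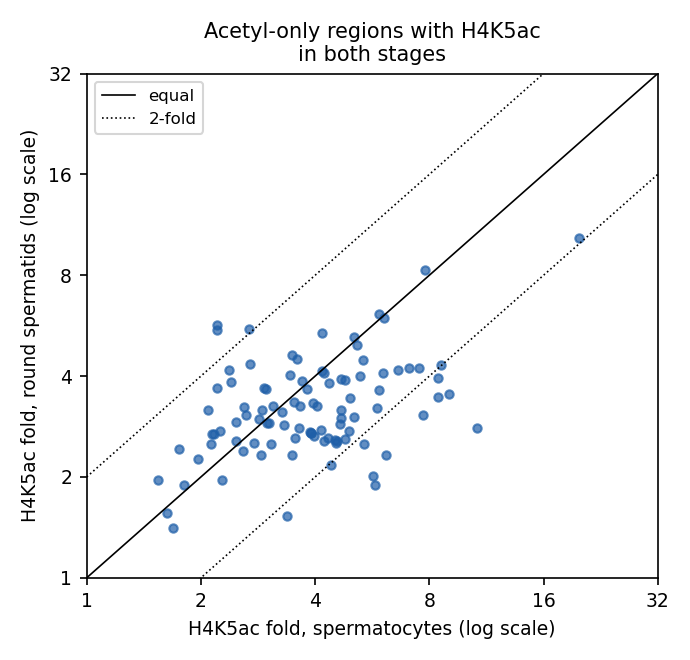
H4K5ac fold over input in spermatocytes (horizontal, log scale) and round spermatids (vertical, log scale) at the 97 acetyl-only regions called in both stages, 1 point per region, with lines of equality and of 2-fold difference. Points lie on both sides of equality, 33 above and 64 below it, with 3 beyond 2-fold above and 11 beyond 2-fold below.

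The 2 regions with the highest ratio were chr2:53512401-53514200 and chr8:38764201-38766400. The first had 47 ChIP over 36 input reads in spermatocytes, a fold between 1.40 and 3.50, and 51 over 19 in round spermatids, a fold of 5.68 (3.30 to 10.2). The second had 2.21 (1.43 to 3.44) and 5.48 (3.30 to 9.42). In the other direction, chr4:147660401-147663000 had a spermatocyte fold of 10.7 (4.48 to 30.9) and a round spermatid fold of 2.81 (1.88 to 4.21). At chr3:88028401-88033000, which lies 200 bp from a butyryl island, the folds were 5.77 (2.97 to 12.1) and 1.89 (1.37 to 2.61). All 4 were chosen as extremes among the 97. H4K8ac in both stages was called at 5 acetyl-only regions, none past 2-fold in either direction, against 0.980% higher and 18.6% lower over all regions with H4K8ac in both.

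Where both acetyl marks were called, H4K8ac stood closer to H4K5ac than elsewhere. In spermatocytes the median log2 ratio of the H4K8ac fold over the H4K5ac fold was -0.27 (-0.32 to -0.23) at 476 acetyl-only regions and -0.65 (-0.66 to -0.65) at the others. In round spermatids it was -0.39 (-0.52 to -0.29) at 55 and -0.80 (-0.81 to -0.80) at the others. H4K8ac had the higher fold at 121 of the 476 (25.4%) and at 6.16% of the others. More than 2-fold higher H4K8ac was found at 4 of the 476, against 0.0867% of all regions with both marks in that stage, and more than 2-fold lower at 30, against 15.5%. In round spermatids none of the 55 was more than 2-fold higher and 2 were more than 2-fold lower, against 0.0170% and 26.5%. The 2 marks share an input library and the regions differ in length, and the part of either in these ratios was not tested.

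Acetyl-only regions were spread over the autosomes. They were 7.21% of the acetyl regions on chromosome 5, the lowest share, and 9.78% on chromosome 17, the highest, with a median of 8.61% over the 19 autosomes. Called in spermatocytes only were 61.2% of them on chromosome 6 to 72.3% on chromosome 8. Of 2415 windows of 1 Mb with an acetyl region, 1951 held an acetyl-only region and 129 held 5 or more. The window with the most, from 3 to 4 Mb on chromosome 11, held 12 among 47 acetyl regions. Those 12 lay between 3435001 and 3959800, 6 in spermatocytes only, 5 in round spermatids only and 1 in both, with folds of 1.39 to 10.1.

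They did not sit far from butyrylated chromatin. The median distance to the nearest butyryl island of any list was 13000 bp (12400 to 13600), and 1076 (24.5%) lay within 5000 bp, 520 (11.8%) beyond 50 kb. From the other acetyl regions, the next region with a butyryl island was at a median of 10200 bp, within 5000 bp for 31.6% and beyond 50 kb for 9.14%. A total of 14 abutted a butyryl island with no gap and 31 lay within 200 bp of it. The gap from an acetyl-only region to the following one along the chromosome had a median of 350200 bp. It runs to a single side and these regions are far fewer than butyryl islands, so it is no like measure. The 2 most remote both lay on chromosome 7. At chr7:11470201-11471800, 386200 bp from any butyryl island, round spermatid H4K5ac had 49 ChIP and 24 input reads, a fold of 4.32 (2.60 to 7.36). At chr7:10583401-10585200, 342200 bp away, round spermatid H4K8ac had a fold of 1.37 (0.935 to 2.01), which does not differ from 1 beyond counting error.

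Remoteness went with slightly higher fold, beyond the intervals, for spermatocyte H4K8ac and round spermatid H4K5ac. Spermatocyte H4K8ac had a median fold of 2.52 (2.36 to 2.67) within 5000 bp of a butyryl island and 3.11 (2.93 to 3.39) beyond 50 kb. Round spermatid H4K5ac had 2.75 (2.65 to 2.84) and 3.18 (3.01 to 3.36). For round spermatid H4K8ac the values were 1.86 (1.65 to 1.95) at 51 regions and 2.13 (1.94 to 2.28) at 32, whose intervals overlap. Spermatocyte H4K5ac had 3.79 (3.66 to 4.02) and 3.64 (3.46 to 4.09), with no difference beyond the intervals.

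Regions called in 1 stage had no particular surroundings in the other. Within 5000 bp of the 2981 acetyl-only regions of spermatocytes alone, round spermatids had an acetyl island at 14.6% (13.4 to 15.9%) and a butyryl island at 15.7% (14.4 to 17.0%). Around other acetyl regions of spermatocytes alone these shares were 15.1% and 15.6%. Around the 1297 of round spermatids alone, spermatocytes had an acetyl island at 12.6% (10.9 to 14.6%) and a butyryl island at 13.6% (11.8 to 15.6%), against 13.0% and 13.1%.

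Over all lengths, high folds were scarcer in acetyl-only regions than in the others, except for round spermatid H4K8ac, which had too few to tell. Length was not held alike in this comparison. More than 8-fold over input were 167 acetyl-only regions of spermatocyte H4K5ac, 14 of spermatocyte H4K8ac and 14 of round spermatid H4K5ac. For round spermatid H4K8ac it was 0 of 215, which allows a share of up to 1.40% (3 counts). The first count is among 2228 regions, and the next 2 are 1.04% and 1.11% of the acetyl-only regions of their lists, and over the other acetyl regions the 4 lists had 30.3%, 7.17%, 10.1% and 0.0877%. Spermatocyte H4K5ac led on both sides. With at least 30 ChIP reads, 143 were left for spermatocyte H4K5ac, with a median length of 1000 bp and a median fold of 10.4. Their ChIP reads per kb had a median of 39.4, against 32.0 in the other 2085 of that list, and their input reads per kb 6.25, against 14.4. These regions were chosen by fold, which divides by input, so low input in them follows in part from the choice. In the other acetyl regions of that list the median fold was 10.8 at up to 10 input reads per kb. Above 20 and up to 30 it was 2.97. Of the 143, 133 had at most 10 input reads in the island and none had 100 ChIP reads. Spermatocyte H4K8ac was also called at 21 of them, against 476 (21.4%) of all 2228 acetyl-only regions of the list. Any acetyl call in round spermatids was found at 7 of the 143. Of the 2228, 97 (4.35%) had H4K5ac in round spermatids.

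The strongest by the lower bound of the fold show how wide the intervals are. At chr9:122670201-122672200 spermatocyte H4K5ac had 61 ChIP reads over 3 input reads, a fold of 34.3 (11.2 to 171.1), and at chr2:83652201-83653200 it had 40 over 2, a fold of 33.8 (8.76 to 288.4). Neither was called in another list. For spermatocyte H4K8ac the first was chr8:8307001-8309000, with 51 reads over 3 and a fold of 21.1 (6.84 to 105.9), where H4K5ac of the same stage had 4.96 (2.76 to 9.37). The next was chr7:69369801-69371200, with an H4K8ac fold of 10.3 (4.70 to 26.8) and an H4K5ac fold of 26.2 (6.66 to 225.7). In round spermatids H4K8ac was strongest at chr1:8167601-8168600, with 38 reads over 9 and a fold of 5.99 (2.85 to 14.1), beside H4K5ac at 7.31 (3.66 to 15.9). At these last 3 both acetyl marks were called in 1 stage and no mark in the other.

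A group on chromosome 6, singled out after its values were seen, held 4 round spermatid H4K5ac folds above those of all other acetyl-only regions of that list. Within 40 kb, from 47076801 to 47116800, lay 5 acetyl-only regions called for H4K5ac in round spermatids and in no other list. Their folds were 21.9 (9.50 to 61.9), 16.9 (7.70 to 44.0), 17.3 (7.40 to 49.4), 10.1 (5.49 to 20.0) and 24.9 (12.6 to 56.0). Pooled, they had 335 ChIP reads over 41 input reads, a fold of 17.3 (12.5 to 24.5). The highest fold of an acetyl-only region of that list outside the group was 14.1, and the lowest of the group ranked 11 among the 1257. Among all round spermatid H4K5ac regions, 1 lay above the group's highest fold. The input density was 3 to 6.5 reads per kb, below the median of 18.3 for acetyl-only regions of the list, and the part of low input in these folds was not tested. Of the 13 round spermatid H4K5ac members above 8-fold with at least 30 reads, 5 were in this group.

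Butyrylation was called beside the group, not in it. A neighbouring region at 47065201 to 47075800 had round spermatid H4K5ac at 10.8 (8.65 to 13.5), with H4K5bu at 10.3 (7.51 to 14.4) and H4K8bu at 9.74 (7.04 to 13.8) in their stronger islands. The nearest member lay 1200 bp from a butyryl island. On the far side an H4K5bu island of round spermatids, at 2.29 fold (1.58 to 3.34), lay 3600 bp beyond the last member. In spermatocytes the neighbouring region had H4K5ac at 6.75 (4.53 to 10.4) in its stronger island and H4K8bu at 5.31 (3.58 to 8.11), and the group itself had no island of any list.

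**Figure D5:**
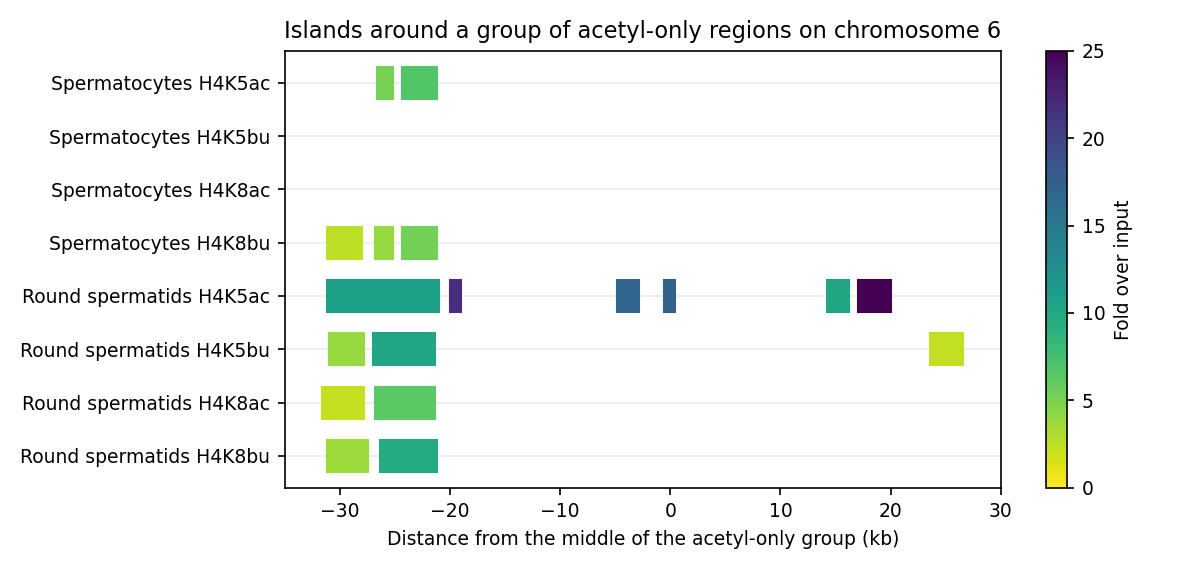
Islands of the 8 lists around the group on chromosome 6, placed by distance in kb from the middle of the group (horizontal axis) and coloured by fold over input. The 5 islands from -20 to 20 kb are round spermatid H4K5ac alone, and the block from about -31 to -21 kb carries acetyl and butyryl islands.

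The 9 regions in 3 acetyl lists were the nearest to full acetylation across stages without butyryl. They were 1800 to 3400 bp long and lay 2600 to 42800 bp from a butyryl island, and all had H4K5ac in spermatocytes. At chr8:95378601-95381200 the folds in spermatocytes were 5.82 (3.40 to 10.4) for H4K5ac and 5.42 (3.00 to 10.5) for H4K8ac, and H4K5ac in round spermatids was 3.21 (2.00 to 5.22). At chr15:18627401-18629200 they were 4.18 (2.47 to 7.31), 6.36 (3.07 to 14.8) and 5.36 (2.88 to 10.5). At chr1:58270601-58273400, H4K5ac and H4K8ac in spermatocytes had 4.50 (2.68 to 7.83) and 3.53 (2.32 to 5.50), and H4K8ac in round spermatids 2.05 (1.33 to 3.19). At these 3 the intervals of the lists overlapped. The genes, promoters and sequence of the acetyl-only regions are not analysed here, since the gene table at hand belongs to another genome build.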

How the data were processed

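ChIP-seq of 4 histone marks in 2 stages gave 8 deposited lists of islands in build mm9, and the 2 input libraries entered only through the input reads in those lists. The submitters' processing notes name CASAVA 1.8.2, Bowtie2 2.2.5, deepTools 1.5.11 and SICER. Their settings, the version of SICER and the treatment of duplicate and multiply mapped reads are not given in the sources used here. Each list has no header. The authors deposited the position, the raw counts of ChIP and of input reads, a p-value, the fold over input and its q-value for each island. The deposited fold equals ChIP divided by input reads (a ratio) scaled by a constant of the list, and 4 islands with 0 input reads depart from this. All deposited q-values were below 0.01 and edges lay on a 200 bp grid.

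Groups were taken from the sample titles. Islands sharing at least 1 bp were merged, on chromosomes 1 to 19, and reads of a region's islands were summed per list to give its fold. Positions are counted from 1. Intervals were exact (Clopper-Pearson) for shares, conditional binomial for folds and from order statistics for medians. Depth was read as ChIP reads inside islands. Python 3.11.15, pandas 2.3.3 and scipy 1.17.1 were used, and the merging and intervals were tested on simulated data. The members and the rules were chosen with earlier results of these data known. Named regions are, per acetyl list, the 2 with the most ChIP reads and the 2 with the highest lower bound of fold at 30 or more reads, then the extremes of the ratio between stages, of length and of distance, and the fullest 1 Mb window. No region was in all 4 acetyl lists, so those in 3 lists were named after their values were seen, as was the chromosome 6 group. The alternatives were wider joining of islands, acetyl islands merged alone, stricter q-values, lists of equal length, the upper 50% by fold, at least 50 ChIP reads, distance from butyryl, and deep input left out. The planned analysis of genes and sequences was not run.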

Additional observations from a re-analysis of the deposited data

Results flagged for a closer look

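The sex chromosomes were outside the comparisons above, and both carried acetyl-only regions. On X, 273 of 1583 acetyl regions had no butyryl call (17.2%, 15.4 to 19.2%), against 7.21 to 9.78% on single autosomes. Of these 273, 186 (68.1%) were called in round spermatids only, 68 (24.9%) in spermatocytes only and 19 in both, whereas on the autosomes 29.5% were called in round spermatids only. H4K5ac was called at 161 of them in round spermatids, with a median fold of 5.48, and at 85 in spermatocytes, with a median fold of 7.60. H4K8ac was called at 47 in round spermatids, with a median fold of 1.28, and at 6 in spermatocytes. Over all 1583 acetyl regions of X, H4K5ac was called at 1235 in round spermatids and 716 in spermatocytes, and H4K8ac at 431 and 384. X as a whole thus also had more calls in round spermatids. The split by stage over all its acetyl regions is not given here. On Y, 9 of 57 acetyl regions were acetyl-only (15.8%, 7.48 to 27.9%), 8 of them in round spermatids only. Whether this differs from the autosomes beyond the spread between samples was not tested, since each group had 1 library.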

How the results depend on the processing

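No paired analysis was possible because each group had 1 library and the labels carry no replicate numbers, and for the same reason no library could be left out. Of 70 recomputed values, 49 stayed within the main value's interval or, for the count, within 1.5 times, and 21 moved. For the H4K8ac ratio between stages, at 5 regions, the range of -0.78 to 0.84 took the place of the interval. Only the log2 ratios between stages could change sign, and they did not. Taking the strongest island returned the same ratios, so it was no check of them. The sign for H4K8ac rests on 2 regions higher and 3 lower in round spermatids. Merging acetyl islands alone keeps the same acetyl-only regions by construction, so only its share could move. Such fixed values count among the 49. The order of the stages and that of the marks turned around with lists of equal length. With all acetyl islands merged alone the acetyl-only share was 8.16%, and with a q-value below 1e-05 in the acetyl lists it was 8.04%. H4K5ac alone made up 67.0% with that q-value in all lists and 66.9% with it in the acetyl lists. With lists of equal length the acetyl-only share was 12.7%, spermatocytes only 45.7% and H4K5ac alone 34.2%. That setting removes more islands from the longer lists by construction. The upper 50% by fold gave a share of 12.9% and spermatocytes only at 62.6%. At least 50 ChIP reads left 2517 regions, 5.34% of acetyl regions, 58.7% in spermatocytes only and 53.1% with H4K5ac alone, with a median length of 2200 bp and median folds of 3.55 and 2.54 for spermatocyte H4K5ac and H4K8ac and 2.79 for round spermatid H4K5ac, since short regions of few reads are then left out. With no butyryl island within 5000 bp the share was 6.41% and the median spermatocyte H4K8ac fold 2.88. Adding X, chosen after seeing the data, gave 8.74% and 65.3% in spermatocytes only. The cause of the other moves was not tested.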
